A study of Mus musculus with 6 samples.

Results

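The core autophagy genes comprise 40 genes whose products start, build and load the autophagosome. They were measured here in mouse embryonic stem cells with doxycycline-driven Argonaute 2 (Ago2), kept without or with the drug. They were chosen by name, not by their values, from 31879 genes in the deposited isoform table. Of the 40, 38 were found under their current symbol and 2 under an older one (Vmp1 as Tmem49, Atg101 as 9430023L20Rik). They take in the ULK initiation complex (5 genes), the class III phosphoinositide 3-kinase complexes and regulators (6), phosphoinositide effectors with lipid transfer and membrane proteins (6), the conjugation machinery (7), the ATG4 proteases (4), the ATG8 family (5) and cargo receptors (7).

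The line studied was TT-FHAgo2, one clone of mouse embryonic stem cells, propagated in 0.1 µg/mL doxycycline, and its polyA RNA was sequenced. In the first condition the drug was withdrawn for 96 h. In the other it was raised to 2.5 µg/mL for 48 h, a dose the labels give for wild-type Ago2. The time and the dose therefore both differ between the conditions, as does exposure to doxycycline itself, and these cannot be told apart from the effect of Ago2. Each condition had 2 strand-specific libraries, which the files number 0 and 1, and values below are given in that order. The labels do not say that these came from separate cultures, so p-values measure only the spread between the libraries, which may be technical. The 2 spike-in samples of the series were not used here.

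Autophagy encloses cytoplasm in a double membrane and delivers it to the lysosome. The ULK1 kinase complex receives signals from AMPK and mTORC1, a class III phosphoinositide 3-kinase makes the lipid that recruits WIPI and ATG2 proteins, and ubiquitin-like conjugation attaches ATG8 proteins (LC3 and GABARAP) to the growing membrane, where cargo receptors dock. MicroRNAs loaded on Argonautes pair through their seed (bases 2 to 8) with sites in 3′ untranslated regions and lower the level of the transcript. The families of miR-291a-3p and miR-302 and of miR-17 are well known in embryonic stem cells, and let-7 in differentiated cells.

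The mature microRNAs below stand for the 3 seed families searched, with the seed in capitals. They were taken from RefSeq (GRCm38.p6).
mmu-miR-17-5p: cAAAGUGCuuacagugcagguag
mmu-miR-291a-3p: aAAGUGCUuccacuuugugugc
mmu-let-7a-5p: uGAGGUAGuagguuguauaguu

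The windows below hold the sites of the miR-17 seed (site in capitals, transcript strand 5′ to 3′) in the 11 core autophagy genes that hold one, whatever their change. One window is shown per gene, with the 8mer where there is one and otherwise the site nearest the start of the region. They were read from the longest 3′ untranslated region per gene in GENCODE M21, in GRCm38 coordinates.
Ulk1 8mer, chr5:110785671-110785698, minus strand: taagtcaccggaGCACTTTAtgcataca
Atg2b 8mer, chr12:105616565-105616592, minus strand: atgtgctgttctGCACTTTAtcttctgt
Sqstm1 8mer, chr11:50200148-50200175, minus strand: aaaatggcatatGCACTTTAaccagccc
Atg16l1 8mer, chr1:87792167-87792194, plus strand: cacacttactttGCACTTTAttttttgc
Atg7 8mer, chr6:114859888-114859915, plus strand: ctcggtttaagaGCACTTTAttattgtt
Atg2a 7mer, chr19:6262048-6262074, plus strand: tgccctgtctgtGCACTTTcatctggg
Atg14 7mer, chr14:47541421-47541447, minus strand: tatcaatcagagGCACTTTtgtcatcg
Rb1cc1 7mer, chr1:6274899-6274925, plus strand: cagtcttcaaaaGCACTTTtcacacag
Wdr45 7mer, chrX:7727996-7728022, plus strand: tcgcttccacgaGCACTTTttgtgact
Bnip3 7mer, chr7:138891537-138891563, minus strand: atccagttaagaCACTTTAcacttcaa
Bnip3l 7mer, chr14:66987513-66987539, minus strand: tggcctgtaagaCACTTTAgagattcc

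Levels are in FPKM, fragments scaled by transcript length and library total, which the authors estimated per isoform and which were summed here per gene. Ago2 stood at 28.7 and 28.8 FPKM without doxycycline and at 35.2 and 36.7 with it (log2 change -0.32, SE 0.08, limma adjusted p = 0.0293). Ago2 RNA was thus lower without the drug but still present. This sum does not separate transcripts of the doxycycline-driven Ago2 from any of the cells' own gene. The 10 embryonic stem cell markers summed to 4402 and 4989 FPKM without the drug and to 4221 and 4712 with it. Nanog and Fgf4 rose among them, while Zfp42, Utf1 and Klf4 fell. The 8 fibroblast and mesenchymal markers summed to at most 5.34 FPKM in any library, with Col3a1 at 0 in all libraries and Col1a2, Prrx1 and Lum at 0 without the drug. The 4 neural markers summed to 63.9 and 76.7 FPKM without and to 69.7 and 74.1 FPKM with the drug. Most of this sum was Tubb3, at 55.6 and 65.8 FPKM without and 63.3 and 66.4 FPKM with the drug. Sox1 was at 0 in all but one library, and Nes was the one that rose (4.37 and 4.89 FPKM, against 2.07 and 2.26). The 4 endoderm markers summed to 1.48 and 1.62 FPKM without and to 0.709 and 0.975 FPKM with it. Gata4 among them measured 1.27 and 1.39 FPKM without and 0.498 and 0.814 FPKM with the drug, and it entered the test only through the libraries without it. The 3 trophoblast markers summed to at most 1.22 FPKM in any library. The part of these marker changes in the results below was not tested, and in bulk RNA fewer cells of a type cannot be told apart from less RNA per cell. The libraries numbered 1 stepped in whole reads that correspond to 46.6 M fragments without and 46.4 M with doxycycline (M, mega). At these depths 3 reads on a 2000-nt transcript are worth 0.0353 and 0.0355 FPKM. The depth of the libraries numbered 0 is unknown.

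All 40 core autophagy genes reached a mean of 1 FPKM in at least one condition and were tested, although Ulk2 did so only through the libraries without doxycycline. Without the drug 10 were higher and 6 were lower, and 24 did not pass. The 16 that passed make up 40% of the genes, and 40.3% of all 13268 genes tested passed. By direction the background was 19.4% higher and 20.9% lower. The share among the core autophagy genes was thus near that of the transcriptome. In TPM, 15 were higher and 4 lower, where the background was 39.3% of genes (26.6% higher, 12.7% lower). With library medians set equal the counts were 8 and 7 (background 46.6%, 17.8% higher and 28.9% lower). With the median change of all genes set to 0, a scale chosen after seeing the data, they were 11 and 5 (background 38.8%, 21.8% higher and 17.0% lower). Their median log2 change was 0.03, against -0.06 over all genes tested. Of the 16 calls, 2 (Atg2a, Gabarapl1) held without any one library, 10 were lost with full-match isoforms alone, 10 with the most abundant isoform, 8 with no filter on low values, 3 with library medians set equal, 2 in TPM (Ambra1, Atg5) and 1 with the median change set to 0 (Atg5). The values of the 2 conditions did not overlap in 27 of the 40, where the background was 73.1% of all genes. Each log2 change sets the libraries off the drug against those on it (off minus on), after 0.5 FPKM was added, so a low gene's change comes out too small. Both directions occurred within 5 of the 7 role groups, no gene passed in FPKM among the ATG4 proteases, and both cargo receptors that passed were higher.

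**Figure D1:**
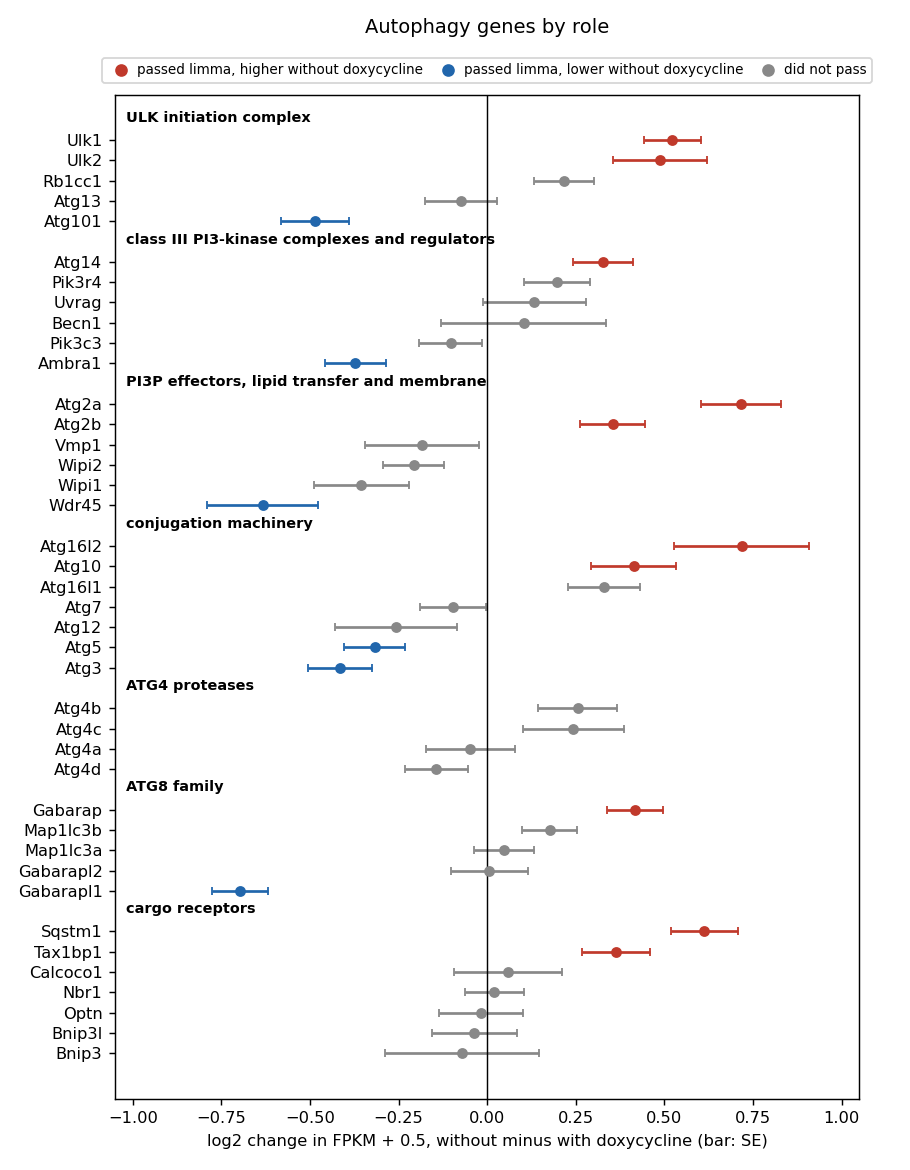
Log2 change in FPKM + 0.5, without minus with doxycycline, of the 40 core autophagy genes in 7 role groups. Points are limma estimates from 2 libraries per condition and bars are SE; 10 genes passed as higher (right), 6 as lower (left) and 24 did not pass, and the changes of those that passed lay between -0.70 and 0.72.

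Within the initiation complex, the kinase Ulk1 rose and the subunit Atg101 fell. Ulk1, the kinase that starts autophagosome formation (chromosome 5, 111213460 to 111239116, minus strand, NCBIM37), stood at 69.4 and 73.4 FPKM without doxycycline and at 49.6 and 49.5 FPKM with it. Both libraries without the drug were thus above both with it (log2 change 0.52, SE 0.08, adjusted p = 0.00863). Ulk2, its close relative (chromosome 11, 61589151 to 61668704, minus strand), was low in all libraries, at 1.37 and 1.59 FPKM without and 0.924 and 0.895 FPKM with the drug (log2 change 0.49, SE 0.13, adjusted p = 0.0394). It entered the test only through the libraries without the drug, so its call is no support for a change, and with no filter on low values it missed the threshold (adjusted p = 0.0751). Ulk2 made up between 1.78% and 2.12% of the summed FPKM of both kinases. Atg101, which stabilises ATG13 in the complex (chromosome 15, 101114713 to 101121375, plus strand), fell to 24.7 and 26.8 FPKM without the drug, against 38.1 and 34.5 FPKM with it (log2 change -0.49, SE 0.10, adjusted p = 0.0161). Its groups did not overlap. The scaffold Rb1cc1 (FIP200) averaged 14.4 ± 0.207 FPKM without and 12.3 ± 0.592 with the drug (SD, n = 2 each; limma adjusted p = 0.0949). It passed as higher in TPM (log2 change 0.38, adjusted p = 0.0249) and with full-match isoforms alone (0.62, 0.0403), while its most abundant isoform had a log2 change of -0.34. Atg13, the subunit that links the kinase to the scaffold, averaged 22.1 ± 2.07 and 23.3 ± 1.30 FPKM in the same order, with overlapping libraries (SD, n = 2 each; limma adjusted p = 0.593). With 1 library left out, Ulk1 missed the threshold without plus-doxycycline library 0 (adjusted p = 0.0544) or 1 (0.0573), Atg101 without no-doxycycline library 0 (0.0565) or plus-doxycycline library 0 (0.0926), and Ulk2 without any one of the 4 (0.0703 to 0.135).

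Among the lipid kinase genes, the summed FPKM of the subunit that directs the kinase to autophagy rose and that of a regulator fell. The catalytic and core subunits did not pass. Atg14, the subunit that targets the complex to sites of autophagosome formation (chromosome 14, 48160489 to 48196284, minus strand), stood at 14.8 and 13.9 FPKM without doxycycline and at 11.5 and 11.1 FPKM with it. The libraries did not overlap, and the log2 change was 0.33 (SE 0.08, adjusted p = 0.0336). With full-match isoforms alone it was 0.14 (limma adjusted p = 0.449). The full-match form of 3430 nt overlapped, at 11.9 and 10.2 FPKM without and 10.4 and 9.50 FPKM with the drug. A 4026-nt form with another splice pattern measured 2.95 and 3.66 FPKM without and 0.991 and 1.62 FPKM with it. Ambra1, a Beclin 1 partner and ubiquitin ligase adaptor (chromosome 2, 91570291 to 91759006, plus strand), stood at 14.2 and 15.2 FPKM without and at 18.6 and 19.7 FPKM with the drug (log2 change -0.37, SE 0.09, adjusted p = 0.0252). The kinase Pik3c3 (VPS34) had a log2 change of -0.10 (adjusted p = 0.396), its regulatory subunit Pik3r4 (VPS15) one of 0.20 (0.145, and 0.0214 in TPM) and Uvrag, the subunit of the endosomal form of the complex, one of 0.13 (0.495). Becn1, the Beclin 1 scaffold, varied more within a condition than between them, with 42.3 and 58.2 FPKM without and 38.2 and 55.7 FPKM with the drug (adjusted p = 0.744). Its 487-nt isoform measured 2.85 and 13.9 FPKM without and 0.660 and 12.3 FPKM with the drug, so it differed more between the library numbers than between the conditions. Neither call held with every library left out: Atg14 missed the threshold without any one of the 4 (adjusted p 0.0625 to 0.179), and Ambra1 without no-doxycycline library 0 (0.0938), plus-doxycycline library 0 (0.0873) or plus-doxycycline library 1 (0.150).

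The genes of both lipid transfer proteins rose in summed FPKM, while the gene of a lipid-binding propeller protein fell. Atg2a, which moves lipid from the endoplasmic reticulum into the growing membrane (chromosome 19, 6241668 to 6262335, plus strand), stood at 19.1 and 23.0 FPKM without doxycycline and at 12.4 and 12.7 FPKM with it. Its log2 change of 0.72 (SE 0.11, adjusted p = 0.00905) passed in each of the 4 fits that left out a library, but not with isoforms that matched an Ensembl transcript in full (adjusted p = 0.0690) or with the most abundant isoform alone (0.0921). Atg2b, its paralog (chromosome 12, 106851730 to 106923516, minus strand), stood at 4.98 and 5.08 FPKM without and at 3.92 and 3.74 FPKM with the drug (log2 change 0.35, SE 0.09, adjusted p = 0.0342). With full-match isoforms alone the log2 change of Atg2b was 0.18 (limma adjusted p = 0.499). The summed level of both ATG2 genes was 24.1 and 28.04 FPKM without and 16.3 and 16.5 FPKM with the drug, and Atg2a held between 75.9% and 81.9% of it. Wdr45 (WIPI4), a phosphoinositide-binding propeller that partners ATG2 (chromosome X, 7291459 to 7305352, plus strand), went the other way. It measured 15.1 and 19.04 FPKM without and 24.0 and 29.5 FPKM with the drug (log2 change -0.63, SE 0.16, adjusted p = 0.0298). Its limma call was lost with no filter on low values (adjusted p = 0.0799) and with full-match isoforms alone (0.0872). The most abundant Wdr45 isoform had a log2 change of -0.42 (limma adjusted p = 0.142). Wipi1 and Wipi2, which bind the same lipid and of which WIPI2 recruits ATG16L1, had log2 changes of -0.36 and -0.21 (adjusted p = 0.0887 and 0.112), and their libraries did not overlap. Wipi2 passed as lower with library medians set equal (adjusted p = 0.0317). The transmembrane scramblase Vmp1 averaged 22.7 ± 2.36 FPKM without and 26.0 ± 5.13 with the drug (SD, n = 2 each; limma adjusted p = 0.394). A 420-nt Vmp1 isoform was listed at 0 in both libraries numbered 0 and measured 2.90 FPKM without and 5.79 FPKM with the drug in those numbered 1. With 1 library left out, Atg2b missed the threshold in each case (adjusted p 0.101 to 0.165), and Wdr45 did so without no-doxycycline library 0 (0.0828) or plus-doxycycline library 1 (0.0947).

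The conjugation machinery was split. Atg3, the enzyme that transfers ATG8 proteins to lipid (chromosome 16, 45158802 to 45188651, plus strand), fell to 13.7 and 14.5 FPKM without doxycycline, against 18.1 and 19.8 FPKM with it (log2 change -0.42, SE 0.09, adjusted p = 0.0212). Atg5, which is joined to ATG12 (chromosome 10, 43988156 to 44084097, plus strand), fell to 12.02 and 11.1 FPKM without the drug, against 14.8 and 14.3 FPKM with it (log2 change -0.32, SE 0.09, adjusted p = 0.0384). Atg10, the enzyme that transfers ATG12 to ATG5 (chromosome 13, 91074954 to 91363592, minus strand), was low but did not overlap, at 1.61 and 1.58 FPKM without and 1.08 and 1.06 FPKM with the drug (log2 change 0.41, SE 0.12, adjusted p = 0.0452). Atg16l2 (chromosome 7, 108434682 to 108450765, minus strand), a paralog of the ATG16L1 scaffold, stood at 7.11 and 8.08 FPKM without and at 3.61 and 5.37 FPKM with the drug (log2 change 0.72, SE 0.19, adjusted p = 0.0361). Of the 4 genes that passed, Atg3 and Atg5 were thus lower, and Atg10 and Atg16l2 higher. With full-match isoforms alone Atg3 (log2 change -0.36, limma adjusted p = 0.298), Atg5 (-0.13, 0.589) and Atg16l2 (0.75, 0.0655) lost the call. The most abundant Atg16l2 isoform had a log2 change of 0.24 (limma adjusted p = 0.622). Atg16l1 itself, which places the conjugation site, stood at 29.0 and 33.0 FPKM without and at 23.6 and 25.5 FPKM with the drug and just missed the threshold (log2 change 0.33, SE 0.10, adjusted p = 0.0537), which it passed in TPM (0.00693) and with library medians set equal (0.0441). Atg7, the activating enzyme of both conjugation routes, averaged 5.30 ± 0.0578 FPKM without and 5.71 ± 0.361 with the drug (SD, n = 2 each; limma adjusted p = 0.441). Atg12 measured 18.8 and 19.2 FPKM without and 19.1 and 27.1 FPKM with the drug (adjusted p = 0.281). The high plus-doxycycline library of Atg12 owed 9.91 FPKM to a 488-nt isoform that stood at 0.352 FPKM in the other, and without that other library Atg12 passed as lower (adjusted p = 0.0489). With 1 library left out, Atg5 (adjusted p 0.0695 to 0.189) and Atg10 (0.114 to 0.168) missed the threshold in each case, Atg3 without no-doxycycline library 0 (0.0760), plus-doxycycline library 0 (0.0555) or plus-doxycycline library 1 (0.129), and Atg16l2 without no-doxycycline library 0 (0.0628), no-doxycycline library 1 (0.101) or plus-doxycycline library 0 (0.0712).

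None of the 4 ATG4 proteases, which trim ATG8 proteins before conjugation and release them from lipid, passed in FPKM. Atg4b, the most abundant, stood at 19.1 and 18.5 FPKM without doxycycline and at 14.3 and 17.2 FPKM with it (log2 change 0.26, SE 0.11, adjusted p = 0.125). In TPM it passed as higher (log2 change 0.42, adjusted p = 0.0301). Atg4d measured 9.94 and 10.7 FPKM without and 11.1 and 11.8 FPKM with the drug (log2 change -0.14, SE 0.09, adjusted p = 0.243). Neither gene's libraries overlapped between conditions, nor did those of Atg4c, at 4.77 and 4.43 FPKM without and 4.35 and 3.33 FPKM with the drug (log2 change 0.24, SE 0.14, adjusted p = 0.226). Atg4a was the lowest, with 1.51 and 1.57 FPKM without and 1.73 and 1.50 FPKM with the drug (adjusted p = 0.780), and its libraries did overlap. Atg4b held 54.1% and 52.6% of the summed protease FPKM without and 45.4% and 50.9% with the drug.

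Within the ATG8 family, whose lipid-bound forms mark the autophagosome, 2 members of the GABARAP branch moved in opposite directions and the LC3 branch did not pass in FPKM. Gabarap (chromosome 11, 69804645 to 69808463, plus strand) stood at 54.1 and 52.1 FPKM without doxycycline and at 39.8 and 39.5 FPKM with it. This rise of 0.42 on the log2 scale (SE 0.08, adjusted p = 0.0141) was larger than the spread in either condition. Gabarapl1 (chromosome 6, 129482959 to 129492349, plus strand) was the lowest of the family and fell to 7.83 and 8.01 FPKM without the drug, against 13.2 and 13.1 FPKM with it. Its log2 change of -0.70 (SE 0.08, adjusted p = 0.00445) had the smallest adjusted p of the 40 genes and passed in each of the 4 fits that left out a library. Gabarap was therefore 25.2% and 22.7% of the family's summed FPKM without and 19.6% and 18.7% with the drug, and Gabarapl1 was 3.64% and 3.49% without and 6.49% and 6.21% with it. Gabarapl2 (GATE-16), the most abundant of all 40 genes, did not pass, at 82.8 and 96.5 FPKM without and 85.6 and 92.5 FPKM with the drug (adjusted p = 0.968). Map1lc3b (LC3B), the form most used as a marker of autophagosomes, measured 43.0 and 44.0 FPKM without and 38.4 and 38.4 FPKM with the drug (log2 change 0.18, SE 0.08, adjusted p = 0.125). In TPM it passed as higher (log2 change 0.34, adjusted p = 0.0208). Map1lc3a (LC3A) measured 27.2 and 29.1 FPKM without and 26.5 and 27.8 FPKM with the drug (adjusted p = 0.673). The 5 genes summed to 215 and 230 FPKM without and to 204 and 211 FPKM with the drug, a sum that did not overlap between the conditions either. Gabarap missed the threshold without no-doxycycline library 0 (adjusted p = 0.0526), plus-doxycycline library 0 (0.0908) or plus-doxycycline library 1 (0.103). With its most abundant isoform alone Gabarap missed it too (log2 change 0.42, limma adjusted p = 0.0702). Gabarapl1 missed it when a single isoform stood for each gene (0.0978) or with isoforms that matched an Ensembl transcript in full (0.0823).

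**Figure D2:**
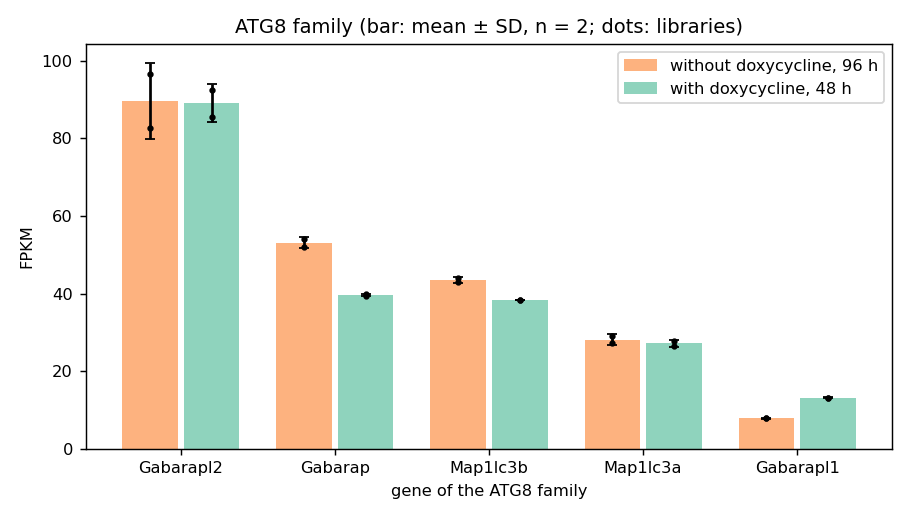
FPKM of the 5 ATG8 genes without and with doxycycline. Bars are means, error bars SD over n = 2 libraries and dots the libraries; Gabarap was higher without the drug (54.1 and 52.1 against 39.8 and 39.5 FPKM) and Gabarapl1 lower (7.83 and 8.01 against 13.2 and 13.1 FPKM).

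Of the 7 cargo receptors, 2 rose and none fell, where 19.4% of all genes tested were higher and 20.9% lower. With only 7 genes, these counts are not told apart from those shares. Sqstm1 (p62), which links ubiquitinated cargo to ATG8 proteins and is itself degraded by autophagy (chromosome 11, 50012868 to 50024329, minus strand), stood at 97.5 and 103 FPKM without doxycycline and at 62.1 and 69.1 FPKM with it. Both libraries without the drug were well above both with it (log2 change 0.61, SE 0.09, adjusted p = 0.00870). Tax1bp1, another ubiquitin-binding receptor (chromosome 6, 52663690 to 52716774, plus strand), stood at 75.2 and 81.7 FPKM without and at 57.8 and 63.9 FPKM with the drug (log2 change 0.36, SE 0.10, adjusted p = 0.0363). Nbr1, which acts beside p62, averaged 46.2 ± 1.39 FPKM without and 45.6 ± 2.09 with the drug (SD, n = 2 each; limma adjusted p = 0.863). Optn, a receptor of damaged mitochondria and bacteria, had a log2 change of -0.02 (adjusted p = 0.919) and Calcoco1, a receptor for endoplasmic reticulum and Golgi, one of 0.06 (0.776). Sqstm1 was 40.9% and 40.3% of the summed FPKM of these 5 receptors without and 33.8% and 33.8% with the drug, and Nbr1 was 18.98% and 18.4% without and 24.0% and 23.1% with it. The mitochondrial receptors did not pass. Bnip3, which hypoxia induces, ran from 22.4 to 35.4 FPKM within the libraries without the drug, which enclosed the 29.9 and 29.3 FPKM with it (adjusted p = 0.809). Bnip3l (NIX) measured 52.7 and 43.5 FPKM without and 50.9 and 47.3 FPKM with the drug (adjusted p = 0.825). Without plus-doxycycline library 0 Sqstm1 missed the threshold (adjusted p = 0.0550), and Tax1bp1 did so without any one of the 4 libraries (0.0589 to 0.230).

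**Figure D3:**
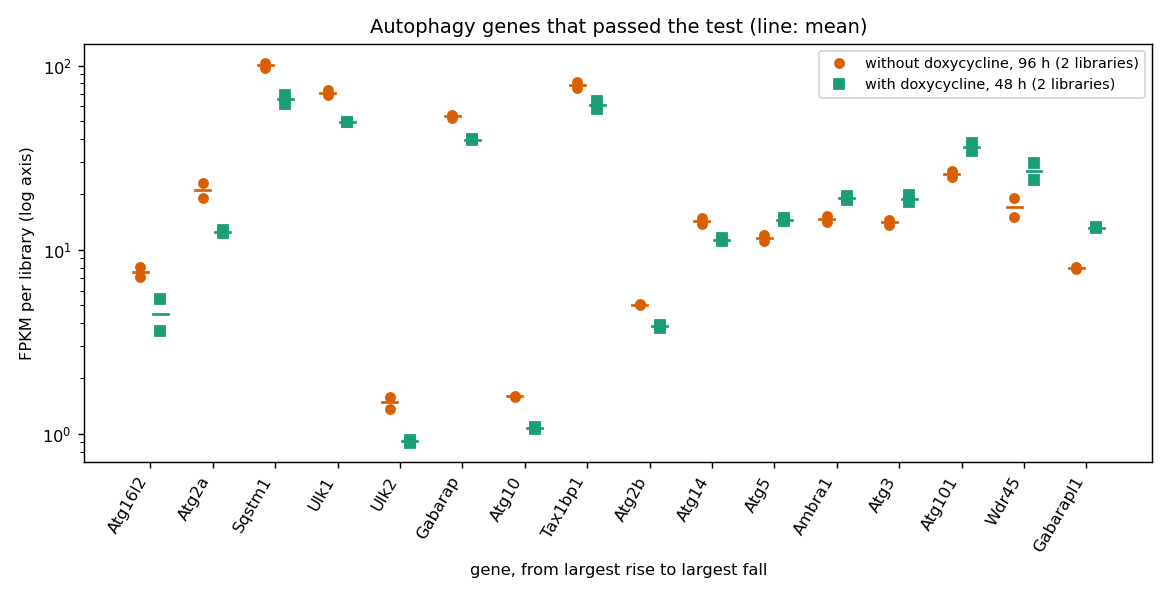
FPKM per library (log axis) of the 16 core autophagy genes that passed limma, ordered from the largest rise to the largest fall. Points are the 2 libraries of each condition and short lines their means. The genes were picked by a test on these same values, so their lack of overlap is no further support. Of all genes tested, 73.1% did not overlap. Levels run from Ulk2 at 1.37 and 1.59 against 0.924 and 0.895 FPKM to Sqstm1 at 97.5 and 103 against 62.1 and 69.1 FPKM. Ulk2 entered the test only through the libraries without the drug.

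Seed sites were read next, since Ago2 acts through them. The conditions are not known to set Ago2 against its absence. Its RNA was still present without the drug, and the summed level does not show how much working protein was made. A 3′ untranslated region was annotated for all 40 core autophagy genes and for 11494 of the genes tested. On the transcript, the searched sites were GCACTTT for the miR-17 family, AGCACTT for the miR-291a-3p and miR-302 family and CTACCTC for let-7, each also in the form that lacks the first base and ends in an added A. The sites of the first 2 families overlap in sequence, so a gene can hold both at one place. A miR-17 site lay in 11 of the 40 genes (27.5%, against 21.7% of all genes), and an 8mer in 5 (12.5%, against 4.45%). These 5 were Ulk1, Atg2b, Atg7, Atg16l1 and Sqstm1, printed above. Of the 11 genes, 5 were higher without doxycycline (Ulk1, Atg14, Atg2a, Atg2b, Sqstm1), Wdr45 was lower and 5 did not pass, with a median log2 change of 0.33. Of all 2497 tested genes with such a site 27.3% were higher and 13.8% lower, with a median of 0.08. Of the other 29 genes, 5 were higher, 5 were lower and 19 did not pass, with a median of 0.01, and of all 8997 tested genes without a site 19.2% were higher and 21.7% lower, with a median of -0.06. No test was made of this split, since the genes with a site are few and were looked at with their changes known.

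A miR-291a-3p or miR-302 site lay in 11 genes (27.5%, against 20.7% of all genes), with 8mers in Wipi1 and Atg16l2. Of these, Ulk1, Atg16l2 and Gabarap were higher, Wdr45 was lower and 7 did not pass, and the median change was 0.10, against 0.02 in the 29 genes without one. Of all tested genes with such a site 28.7% were higher and 13.5% lower, with a median of 0.09. Of all those without one 18.9% were higher and 21.6% lower, with a median of -0.06. A let-7 site lay in 9 genes (22.5%, against 16.8%), with 8mers in Wipi2, Atg4b and Atg4d. Of these, Ulk2, Atg14 and Atg16l2 were higher, none was lower and 6 did not pass, with a median of 0.26, against 0.01 in the 31 without one. Ulk2 entered the test only through the libraries in which it is high, so it adds nothing to that tally. Of all tested genes with a let-7 site 22.9% were higher and 16.7% lower, with a median of -0.000368. Of all those without one 20.5% were higher and 20.6% lower, with a median of -0.0349. The window is not in every isoform. The most abundant Sqstm1 isoform, of 2037 nt, held 83.3% and 89.7% of the gene's FPKM without doxycycline, and its reference transcript does not contain the miR-17 site. That isoform measured 81.2 and 92.7 FPKM without and 50.2 and 59.1 FPKM with the drug. The 2673-nt isoform whose reference transcript carries the site measured 6.44 and 5.18 FPKM without and 5.90 and 3.57 FPKM with it. The leading isoforms of Wipi1, Wipi2 and Atg16l2 likewise match reference transcripts without the 8mer named, and that of Atg4d, of 1909 nt, ends before it. The reference transcripts of the leading isoforms of Ulk1, Atg2a, Atg2b, Atg14, Atg16l1 and Atg7 contain the windows printed above.

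**Figure D4:**
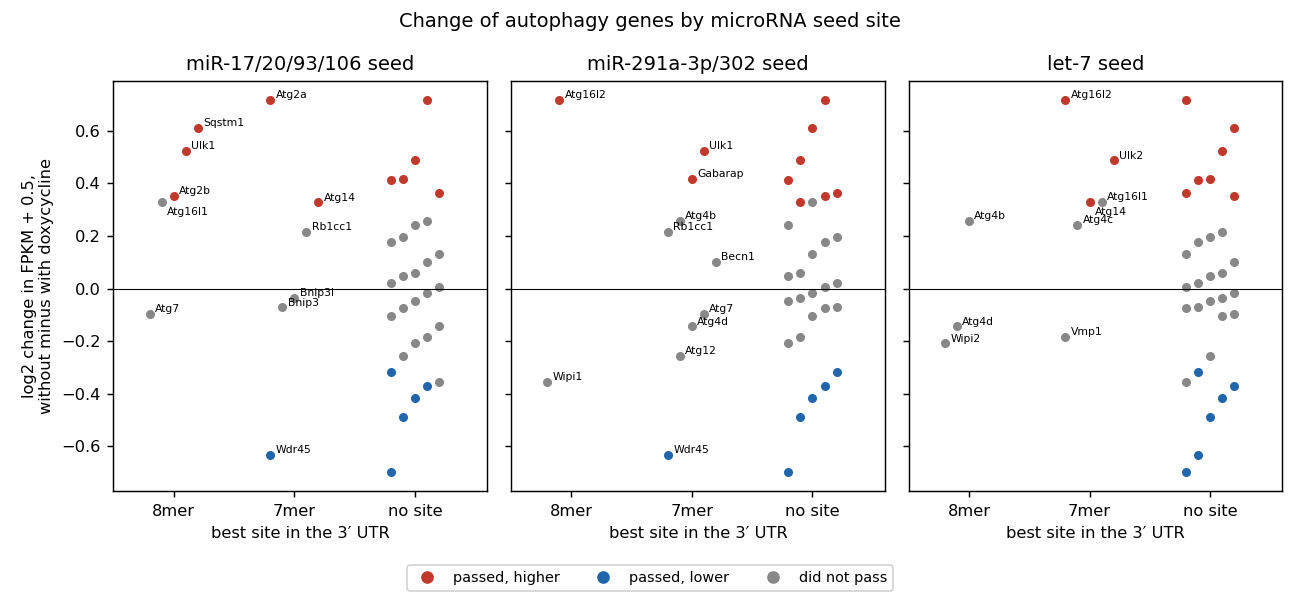
Log2 change in FPKM + 0.5, without minus with doxycycline, of the 40 core autophagy genes (1 point a gene, spread sideways for legibility) by the best seed site in the longest annotated 3′ untranslated region, for 3 microRNA families. Of the 5 genes with a miR-17 8mer, 3 passed as higher (Ulk1, Atg2b, Sqstm1), and Atg16l1 and Atg7 did not pass. Of all tested genes with any miR-17 site 27.3% were higher and 13.8% lower, and no share was taken for 8mers alone. The most abundant Sqstm1 isoform matches a reference transcript without the site.

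In 33 core autophagy genes a 300-base RefSeq promoter window around the start (GRCm38.p6) could be searched for CACGTG, the core of the E-box bound by TFEB-type factors, which reads the same on both strands. The 33 genes had 39 such windows, and a gene was counted if any of its windows held the motif, whichever start its isoforms used. The motif was found in 5 of the 33 (15.2%), against 8.09% of all 27025 genes with such a window, tested here or not. Of these 5, Atg14 was higher, Atg3 and Atg5 were lower, and Atg7 and Bnip3 did not pass. The longer form TCACGTGA was found in Atg3 alone (3.03%, against 1.12%).

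Around the core machinery, 75 related genes in 5 lists were measured and 73 tested. Without doxycycline 16 were higher, 7 were lower and 50 did not pass, so that 31.5% passed, against the 40.3% of all genes. Their median log2 change was 0.13. The counts of each list, here and below, stand beside 19.4% higher and 20.9% lower over all genes tested. Each list is too small to be told apart from those shares. Upstream of ULK1, 2 of 20 sensing genes were higher and 1 was lower. Prkaa1, a catalytic subunit of the energy sensor AMPK, stood at 21.8 and 19.4 FPKM without and at 14.2 and 12.8 FPKM with the drug (log2 change 0.59, adjusted p = 0.0118). Sesn1, a sestrin that restrains mTORC1, had a log2 change of 0.46 (adjusted p = 0.0154) and Rptor, the scaffold of mTORC1, one of -0.33 (0.0267).

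Of the 7 tested transcription factors of autophagy and lysosome genes, 3 were higher and 1 was lower. Mitf, of the same family as TFEB, stood at 17.4 and 17.0 FPKM without doxycycline and at 6.02 and 6.10 FPKM with it, the largest change among the related genes that passed (log2 change 1.43, SE 0.08, adjusted p = 0.00180). That call was lost with isoforms that matched an Ensembl transcript in full (log2 change 0.59, adjusted p = 0.680). Tfe3, another member of that family, fell to 25.0 and 28.4 FPKM without the drug, against 34.2 and 35.4 FPKM with it (log2 change -0.38, adjusted p = 0.0311). Foxo1, a forkhead factor of the starvation response, had a log2 change of 0.36 (adjusted p = 0.0417).

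Among 16 further initiation and lipid genes, 4 were higher and 2 were lower. Wdr45b (WIPI3), the closest relative of Wdr45, fell to 22.5 and 23.2 FPKM without doxycycline, against 36.2 and 36.1 FPKM with it (log2 change -0.65, SE 0.08, adjusted p = 0.00470). Both genes of this pair were thus lower. Atg9b, a lipid scramblase of ATG9 vesicles, had a log2 change of 0.61 (adjusted p = 0.0106) and Trp53inp1, a p53-induced protein that binds LC3, one of 0.48 (0.0360). Of 14 genes of fusion with the lysosome, 2 were higher and 1 was lower. Ykt6, a SNARE of the autophagosome, fell to 17.1 and 22.9 FPKM without the drug, against 34.5 and 36.2 FPKM with it (log2 change -0.82, SE 0.15, adjusted p = 0.0137). Plekhm1, a tethering adaptor, and Snap29, a partner SNARE, had log2 changes of 0.52 and 0.44 (adjusted p = 0.0219 and 0.0165).

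Of 16 further receptors and mitophagy genes tested, 5 were higher and 2 were lower. The 2 largest changes that passed were in Retreg1 and Ccpg1, receptors of the endoplasmic reticulum. Calcoco1, a core autophagy gene and a receptor for the same compartment, did not pass (log2 change 0.06, limma adjusted p = 0.776). Ccpg1 stood at 35.5 and 36.9 FPKM without doxycycline and at 18.2 and 18.8 FPKM with it (log2 change 0.95, SE 0.08, adjusted p = 0.00259). Retreg1 (FAM134B) was low, at 3.76 and 2.66 FPKM without and 1.24 and 1.18 FPKM with the drug (log2 change 1.10, SE 0.17, adjusted p = 0.00918). Wdfy3 (ALFY), a scaffold for the removal of protein aggregates, stood at 15.7 and 16.1 FPKM without and at 8.56 and 8.84 FPKM with the drug (log2 change 0.84, SE 0.08, adjusted p = 0.00304). Of the 15 related genes named, 8 lost the call without at least 1 library, which were Prkaa1 (adjusted p = 0.0541), Sesn1 (up to 0.0813), Rptor (up to 0.158), Tfe3 (up to 0.154), Foxo1 (up to 0.179), Trp53inp1 (up to 0.177), Plekhm1 (up to 0.0908) and Snap29 (up to 0.0898). Ccpg1 lost it with the most abundant isoform alone (0.683), as did Wdfy3 (0.0676) and Atg9b (0.105). Retreg1, Wdr45b and Ykt6 kept it in every setting tried in which they were tested.

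**Figure D5:**
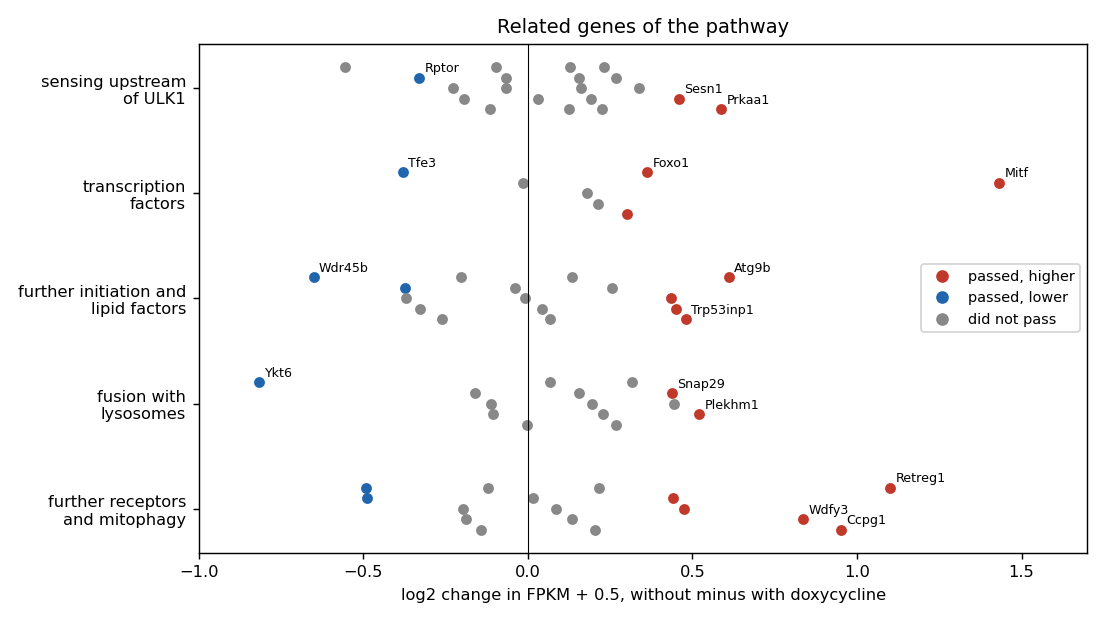
Log2 change in FPKM + 0.5, without minus with doxycycline, of the 73 related genes tested, in 5 lists (points are limma estimates, spread vertically within a list for legibility; 2 libraries per condition). Of these, 16 passed as higher and 7 as lower, from Ykt6 at -0.82 to Mitf at 1.43; the named genes are the up to 3 largest changes that passed in each list.

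At the level of isoforms no call could be made. Of 32943 isoforms tested, 0 passed limma (0%), although 18.4% had an unadjusted p under 0.05. Among the 113 tested isoforms of the core autophagy genes, 13 had such a p and 0 passed, and the lowest adjusted p was 0.138, for the 5213-nt form of Ulk1. This form measured 30.1 and 31.8 FPKM without doxycycline and 18.4 and 18.8 FPKM with it, and held 43.3% and 43.4% of the gene's FPKM without the drug. Both main Gabarap forms were higher, the 1351-nt form at 29.6 and 26.1 FPKM without and 20.8 and 20.7 with the drug, and the 750-nt form at 23.0 and 24.6 FPKM without and 18.3 and 18.4 with it. Of Gabarapl1, the 1765-nt form measured 7.78 and 8.01 FPKM without and 10.0 and 12.7 FPKM with the drug, and a 1729-nt form with another splice pattern 0.0486 and 0.00852 FPKM without and 3.21 and 0.372 FPKM with it. By mean FPKM, the most abundant tested isoform was the same in both conditions for each of the 30 genes with 2 or more isoforms tested. For 8 further genes only 1 isoform was tested, so no switch could be seen. Single libraries could differ from the means: in plus-doxycycline library 1 the 817-nt Atg3 form (9.99 FPKM) exceeded the 2057-nt form (8.67 FPKM). Isoforms under 1000 nt held 15.0% and 18.8% of the summed FPKM of the core autophagy genes without and 14.9% and 21.0% with the drug, a share that was higher in the libraries numbered 1 of both conditions. Over all genes the share was 34.1% and 37.1% without and 37.6% and 39.9% with the drug, also higher in the libraries numbered 1.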

How the data were processed

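Per the submitters' processing notes, the authors used build NCBIM37, TopHat2 2.0.9 and Cufflinks 2.1.1 to obtain FPKM for each isoform. The deposited FPKM values carry no read counts, and the library total behind their scale is not given in the sources used here. Isoforms of at least 200 nt whose class code marked a full match or a shared splice junction were summed per gene (386 of 387 isoforms of the 40 core autophagy genes). In the table, 25 symbols turned into dates were restored. After adding 0.5 FPKM and taking log2, limma 3.58.1 in R 4.3.3 compared the conditions (trend, two-sided). This covered the 13268 genes whose mean reached 1 FPKM without or with the drug, and Benjamini-Hochberg adjusted p-values were judged at 0.05. There were 2 residual and 3.10 prior degrees of freedom. Exact permutation of 4 libraries can reach no p under 0.333 and was not used.

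The columns' numbers 0 and 1 could not be tied to the labels' replicate numbers, so libraries were treated as unpaired. The 40 genes, the lists of related genes and the rules were chosen with earlier results of these data known, so no list was tested as a set. All 40 genes are named, with related genes limited to the 3 largest changes that passed in each list. Seed sites were searched in GENCODE M21 (GRCm38), used for names and sequences only. Read steps were fitted to low values of transcripts of at least 500 nt, within 0.1 read. Whole steps were found in 100% and 99.9% of values in the libraries numbered 1, and in 40.9% and 42.7% in those numbered 0. The fit and the step search were tested on simulated data. The alternatives are named in the closing section. Other steps ran in Python 3.11.15 (numpy 2.4.6, pandas 2.3.3, matplotlib 3.10.9).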

Additional observations from a re-analysis of the deposited data

How the results depend on the processing

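All 16 calls kept their direction under every alternative in which the gene was tested, yet each lost the threshold under some. The counts of core autophagy genes higher and lower without doxycycline were 10 and 6. They became 4 and 4 with no filter on low values, 5 and 1 with isoforms matching an Ensembl transcript in full, and 2 and 2 with the most abundant isoform of each gene. Leaving out 1 library gave 1 to 4 higher and 1 to 5 lower. Related genes (16 and 7) became 4 and 3, and 3 and 2, under the 2 isoform choices, 30 and 4 in TPM, 13 lower with library medians equal, and 6 to 12 higher and 2 to 8 lower with 1 library left out. Over all genes 5351 calls (2578 higher, 2773 lower) became 2565 (1266 and 1299) and 2023 (1046 and 977) under the isoform choices, and 3065 to 4197 (1700 to 1974 higher, 1318 to 2365 lower) with 1 library left out. One isoform passed with a minimum of 5 FPKM, and 0 otherwise.

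The scale matters for direction. Of all calls 48.2% were higher, against 67.7% in TPM (3941 higher), 38.1% with library medians equal and 56.2% with the median change set to 0, an alternative chosen after seeing the data. The median change of all genes was -0.06, 0.10 in TPM, -0.12 with library medians equal and 0.00 in the last. Core autophagy genes were 15 higher and 4 lower, 8 and 7, and 11 and 5 under these scales. Their median change of 0.034 was 0.020 with a minimum of 5 FPKM, 0.0063 with full matches, 0.19 in TPM, 0.089 with the median change set to 0, and it reversed to -0.032 with the most abundant isoform and -0.032 with library medians equal. With 1 library left out it ran from -0.029 (without plus-doxycycline library 0) through -0.0057 (without no-doxycycline library 1) to 0.11, so it has no stable sign. The cause was not tested.

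With the columns' number as a replicate block, 8123 genes passed (4516 lower), with 14 core autophagy genes higher and 7 lower and 27 related genes higher and 15 lower. The calls gained among core autophagy genes included Map1lc3b (adjusted p = 0.0286), Rb1cc1 (0.0363), Pik3r4 (0.0340), Atg16l1 (0.00673) and, as lower, Wipi2 (0.0374). Deviations of same-numbered libraries correlated at 0.464 across genes. Whole read steps were found in 100% and 99.9% of values in the libraries numbered 1, against 40.9% and 42.7% in those numbered 0. The numbers thus mark a difference shared by both conditions, which the main fit leaves in the spread and whose source was not tested. With only 2 pairs they are still not shown to pair the libraries. With 2 libraries a condition small changes cannot be separated from the spread, and how reads shared by near-identical gene copies were split is not given in the sources used here.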
